A study of Mus musculus with 8 samples.

Results

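Macrophages are tissue phagocytes that live on signals through the CSF1 receptor and carry a recognisable set of surface, lysosomal and secreted proteins. Among their secreted products is C1q, which assembles from A, B and C chains, binds immune complexes and dying cells, and starts the classical complement pathway by way of the proteases C1r and C1s. In pancreatic tumours macrophages are among the most abundant immune cells. The 9 genes described here are Adgre1, Csf1r, Cd68, Lyz2, C1qa, C1qb, C1qc, Ms4a7 and Fcgr1, taken by symbol from a list of macrophage identity and C1q genes. They are 9 of the 29621 annotated genes to which the transcripts in the files were matched, and each was measured and tested in the comparison of genotypes, so no member was lost to the filter on low counts.

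The libraries came from whole pancreas of C57BL/6 mice at postnatal day 42 (6 weeks of age), perfused before the organ was taken. KPC-OG mice carried p48-Cre (Cre recombinase from the Ptf1a locus, active in the pancreatic epithelial lineage), a Cre-dependent oncogene, Trp53fl/fl and the Cre-inducible allele R26tm1(LSL-OG). KPC mice carried the first 3 of these without the R26 allele, so both groups had Cre, the oncogene and floxed Trp53, and neither is a pancreas without a tumour model. Macrophages belong to the blood lineage and not to the epithelial lineage in which p48-Cre acts. Each genotype had 4 libraries of total RNA, depleted of ribosomal RNA. Whether each library is a separate mouse is not stated, and a p-value here speaks only of the spread among the sequenced libraries. In whole tissue, more macrophages and more RNA of a gene in each macrophage cannot be told apart.

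Promoter sequence was compared among the members for motifs of factors known in myeloid cells. The windows below are the 250 bases before the RefSeq start (build GRCm38.p6, minus strand for each gene, written 5′ to 3′) of C1qb at chr4:136886201-136886450, Cd68 at chr11:69666171-69666420 and Fcgr1 at chr3:96293970-96294219. They are shown because they cover a C1q chain, a lysosomal marker and the member whose difference did not pass the test. Capitals mark GAGGAA or its reverse complement TTCCTC, the core of the site bound by PU.1, the transcription factor that myeloid cells depend on, and TGANTCA, the AP-1 site. The motifs were chosen after these promoters had been seen.
C1qb: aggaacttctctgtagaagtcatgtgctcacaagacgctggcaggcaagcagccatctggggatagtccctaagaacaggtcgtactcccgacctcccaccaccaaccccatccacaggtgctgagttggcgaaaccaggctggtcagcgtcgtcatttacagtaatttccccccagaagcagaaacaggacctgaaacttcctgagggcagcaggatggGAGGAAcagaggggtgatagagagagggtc
Cd68: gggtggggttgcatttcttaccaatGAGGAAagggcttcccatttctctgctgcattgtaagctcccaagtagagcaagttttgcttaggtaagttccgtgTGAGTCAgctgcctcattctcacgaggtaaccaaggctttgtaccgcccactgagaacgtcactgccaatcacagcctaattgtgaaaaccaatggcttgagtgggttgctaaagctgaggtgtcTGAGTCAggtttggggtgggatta
Fcgr1: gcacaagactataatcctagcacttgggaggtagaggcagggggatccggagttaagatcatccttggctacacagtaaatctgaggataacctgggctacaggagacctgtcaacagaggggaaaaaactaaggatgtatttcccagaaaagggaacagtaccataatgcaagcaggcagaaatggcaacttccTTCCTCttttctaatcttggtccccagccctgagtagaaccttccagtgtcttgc

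In C1qb the GAGGAA began 30 bases before the start, in Cd68 it began 225 bases before the start, and in Fcgr1 it lay on the opposite strand, with its first printed letter 55 bases before the start. Cd68 also held TGANTCA at 149 and 24 bases before the start. With N at its centre this motif matches on both strands wherever it occurs, and no match in these windows overlapped one of another motif. Windows were searched for 6 of the 9 members, with a pair of starts for Ms4a7. Adgre1 and C1qa had no entry among the RefSeq starts used, and Csf1r was left out of the search. Of the members not printed, C1qc had GAGGAA on the opposite strand 193 bases before its start, Ms4a7 had TGANTCA 81 bases before the start at chr19:11334696-11334945, and Lyz2 had neither motif in its window. The E-box CACGTG, bound by MITF and TFE factors, had no match in the windows of these 6 genes. Over all 32851 promoter windows of the same length and on both strands, GAGGAA occurred in 23.3%, TGANTCA in 6.75% and CACGTG in 6.02%. A match is a run of letters, and no binding was measured here.

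The comparison of genotypes asked how these genes differed in pancreas with the OG allele. Of the 9 genes, 8 rose in KPC-OG relative to KPC and none fell, with edgeR's quasi-likelihood test and an adjusted p under 0.05 over all 14267 tested genes. The same test called 17.4% of all tested genes higher in KPC-OG and 16.6% lower. The rises ran from 1.73-fold for Csf1r to 3.67-fold for Ms4a7, and 7 members were at least 2-fold higher, against 10.4% of all tested genes that passed at that size. For 8 members every KPC-OG library lay above every KPC library, against 17.6% of all tested genes. The median log2 fold change of the 9 genes was 1.45, and that of all tested genes was 0.09. The exception was Fcgr1, whose groups overlapped.

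Levels below are counts scaled to library size (CPM) with TMM, which sets the libraries against each other by the genes they have in common. That scaling mattered here, because reads assigned to the single gene Lars2 were 3.73% to 7.11% of a library in KPC-OG, against 20.8% to 30.0% in KPC, and the acinar enzyme list summed to 76794 to 284707 CPM in KPC-OG, against 496801 to 815218 CPM in KPC. TMM factors were 1.14 to 2.28 in KPC-OG and 0.483 to 0.653 in KPC. With library sizes alone, re-centred on the median gene, 917 genes (6.43%) were higher in KPC-OG and 1400 lower, and 7 of the 9 members kept the call. Estimated reads per library numbered 13671606 to 18292115 in KPC-OG and 7373286 to 11292570 in KPC, so the low genes rest on fewer counts in KPC.

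Libraries of a group were not alike in their lymphoid content. The B and plasma cell list summed to 153 CPM in KPC-OG 2 and 92.6 in KPC-OG 3, with 14.6 and 45.7 in KPC-OG 1 and KPC-OG 4. In KPC it summed to 73.2 and 95.9 CPM in libraries 2 and 4, with 7.26 and 7.16 in libraries 1 and 3. The T and NK cell list and the lymph node list were likewise highest in KPC-OG 2, KPC 2 and KPC 4. The liver list stood apart in KPC-OG 2 (277 CPM) and KPC-OG 3 (337 CPM), against 18.8 and 20.7 CPM in the other KPC-OG libraries and 14.3 to 28.8 CPM across KPC. None of the B and plasma cell, T and NK cell or lymph node genes differed between genotypes in edgeR, at an adjusted p under 0.05 or an unadjusted p under 0.05, and none rose in DESeq2 or limma-voom, with list medians of 0.25, 0.31 and 0.41 on the log2 scale. All 9 macrophage and C1q genes were higher in KPC 2 and KPC 4 than in KPC 1 and KPC 3. Within KPC-OG the order differed, with 7 members highest in library 4 and 6 lowest in library 2. The part that lymphoid tissue plays in the differences between genotypes was not tested. Without KPC-OG 2, KPC-OG 3, KPC 2 and KPC 4, a choice made after seeing the data that leaves 2 libraries in each group, all 9 members passed the test. Of all 14832 genes tested in that fit, 2380 were called higher in KPC-OG and 2075 lower. That choice takes out the KPC libraries in which every member was higher. The remaining libraries were not alike in lymphoid content either, with a T and NK cell sum of 5.51 CPM in library 1 and 14.9 CPM in library 4 of KPC-OG, against 2.10 CPM in library 1 and 2.39 CPM in library 3 of KPC. The lymph node sum was 33 and 61.2 CPM in those KPC-OG libraries, against 3.63 and 6.37 CPM in those of KPC. In that fit 2 of the 3 B and plasma cell genes that could be tested (Jchain and Spib), 1 of 6 T and NK cell genes (Cd4) and 2 of 6 lymph node genes (Ccl21a and Cxcl13) were also called higher in KPC-OG.

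**Figure D1:**
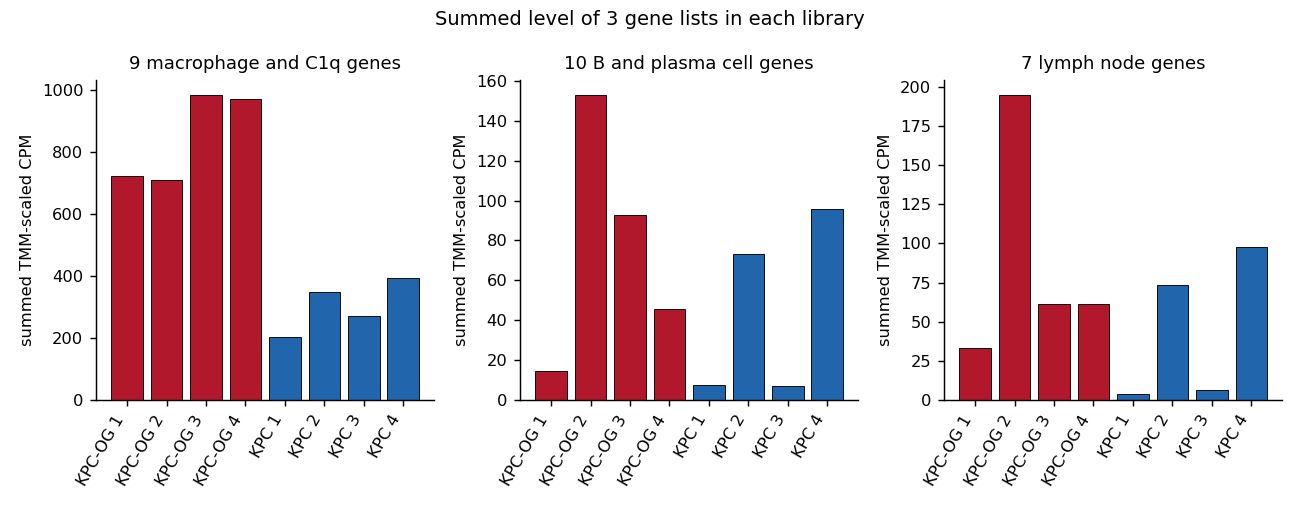
Summed TMM-scaled CPM of the 9 macrophage and C1q genes, of 10 B and plasma cell genes and of 7 lymph node genes, 1 bar for each library, red for KPC-OG and blue for KPC. The macrophage and C1q sum was 709 to 985 CPM in KPC-OG and 204 to 395 CPM in KPC, while the lymphoid sums were high in libraries of both genotypes.

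Adgre1 (chr17:57358691-57483527 in GRCm38, plus strand) encodes F4/80, the adhesion receptor used as the standard surface marker of mouse tissue macrophages. It measured 23.4, 20.8, 25.0 and 30.3 CPM in KPC-OG libraries 1 to 4, against 6.68, 12.0, 8.49 and 13.0 CPM in KPC libraries 1 to 4. The lowest KPC-OG library was well above the highest KPC library. The mean was 24.9 ± 3.98 CPM in KPC-OG and 10.1 ± 2.96 CPM in KPC (SD, n = 4 each). The log2 fold change was 1.30 ± 0.21 (SE, adjusted p = 0.00173).

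Csf1r (chr18:61100598-61132149, plus strand) encodes the receptor for CSF1 and IL-34, on which most tissue macrophages depend for survival. Its levels were 66.2, 66.2, 87.4 and 88.5 CPM in KPC-OG, against 31.5, 56.2, 36.4 and 53.9 CPM in KPC. The groups did not overlap, but KPC 2 and KPC 4 came close to the lower KPC-OG libraries. The log2 fold change, 0.79 ± 0.21 (SE, adjusted p = 0.0148), was the smallest of the 9. It was 0.66 with an adjusted p of 0.151 when library sizes were re-centred on the median gene, so the call for Csf1r depends on the scaling.

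Cd68 (chr11:69664213-69666153, minus strand) encodes macrosialin, a glycoprotein of the lysosomal membrane of phagocytes. It measured 11.0, 12.1, 12.0 and 13.4 CPM in KPC-OG, against 4.97, 5.45, 5.31 and 6.75 CPM in KPC. Its libraries were tight within each genotype, with a mean of 12.1 ± 0.96 CPM in KPC-OG and 5.62 ± 0.78 CPM in KPC (SD, n = 4 each). The log2 fold change was 1.10 ± 0.15 (SE, adjusted p = 0.00103).

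Lyz2 (chr10:117277331-117282321, minus strand) encodes lysozyme M, the bacteria-lysing enzyme of macrophages and neutrophils. It measured 404, 428, 622 and 563 CPM in KPC-OG, against 98.0, 186, 160 and 219 CPM in KPC. Every KPC-OG library was above every KPC library by a wide margin. The log2 fold change was 1.61 ± 0.26 (SE, adjusted p = 0.0018). Of the 20-base words in the Lyz2 transcript, the unit by which reads were assigned, 48% also occur in Lyz1, the lysozyme of intestinal Paneth cells, which lies next to it on chromosome 10. Lyz1 stood at 23.6 to 41.1 TPM, the deposited abundance per length in KPC-OG and 4.30 to 8.02 TPM in KPC, and Lyz2 exceeded it by at least 21.1 times in KPC-OG and 12.2 times in KPC.

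The 3 C1q chains lie in a row on the minus strand of chromosome 4, with C1qb at chr4:136880129-136886187, C1qc at chr4:136889804-136893065 and C1qa at chr4:136895917-136898803. C1qa, the A chain, measured 85.9, 69.0, 86.4 and 106 CPM in KPC-OG, against 29.2, 35.3, 23.9 and 37.8 CPM in KPC. C1qb, the B chain, measured 56.8, 49.1, 65.3 and 76.1 CPM in KPC-OG, against 16.0, 22.2, 17.0 and 24.8 CPM in KPC. C1qc, the C chain, measured 62.8, 53.0, 74.9 and 81.5 CPM in KPC-OG, against 14.1, 28.6, 16.7 and 31.4 CPM in KPC. In each chain library 4 was the highest and library 2 the lowest of KPC-OG, library 4 was also the highest of KPC, and the genotypes did not overlap. The log2 fold changes were 1.45 ± 0.18 for C1qa (SE, adjusted p = 0.000715), 1.62 ± 0.19 for C1qb (SE, adjusted p = 0.000573) and 1.58 ± 0.26 for C1qc (SE, adjusted p = 0.00189). These intervals overlap one another, and no difference between the chains was tested.

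Ms4a7 (chr19:11321039-11336146, minus strand) encodes a membrane-spanning protein of the MS4A family that is used as a marker of mature macrophages. It measured 8.10, 7.98, 8.51 and 7.83 CPM in KPC-OG, against 1.34, 1.88, 1.06 and 4.22 CPM in KPC. Its KPC-OG libraries were the most even of the 9 genes (8.11 ± 0.29 CPM, SD, n = 4), while KPC 4 stood above the other KPC libraries. The log2 fold change, 1.87 ± 0.34 (SE, adjusted p = 0.00269), was the largest of the 9. The KPC values rest on 4 to 25 counts a library, and without KPC 4 the log2 fold change was 2.47.

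Fcgr1 (chr3:96282909-96293969, minus strand) encodes CD64, the high-affinity Fc receptor for IgG, which separates macrophages from most dendritic cells. It measured 4.99, 3.55, 4.32 and 6.40 CPM in KPC-OG, against 1.72, 2.82, 1.33 and 4.22 CPM in KPC. KPC-OG 2 lay below KPC 4 and KPC-OG 3 was close to it, so the groups overlapped. The log2 fold change of 0.90 ± 0.35 (SE) did not pass the test (adjusted p = 0.068), which does not show that the level was equal. It rested on 5 to 25 counts in the KPC libraries. Without KPC 4 it was 1.27 with an adjusted p of 0.0248, and without the 4 libraries rich in lymphoid genes it was 1.83 (adjusted p = 0.0095). Each of these fits leaves out KPC 4, the KPC library in which Fcgr1 was highest.

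**Figure D2:**
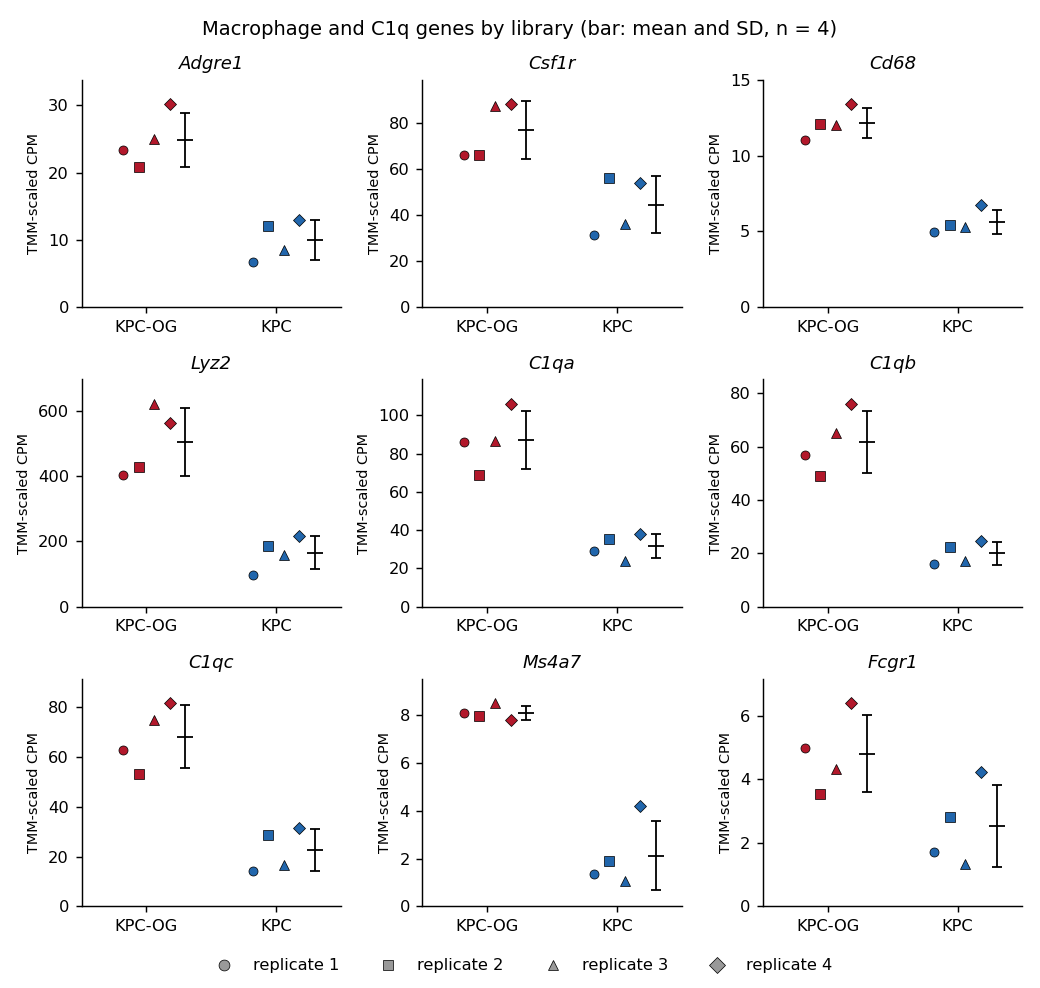
TMM-scaled CPM of each of the 9 genes in every library, with KPC-OG in red left of KPC in blue, the replicate number as the marker shape, and bars for mean and SD (n = 4). The genotypes are apart in 8 panels and overlap for Fcgr1, where KPC-OG 2 at 3.55 CPM lies below KPC 4 at 4.22 CPM.

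The members kept their direction in all 22 alternative fits, 8 of which each left out 1 library. Cd68, Lyz2, C1qa, C1qb, C1qc and Ms4a7 passed in all 22. Adgre1 passed in 21, missing with re-centred TPM and a pseudocount of 0.1 (adjusted p = 0.0562), and Csf1r passed in 20. Fcgr1 passed in 7. Library sizes alone, library sizes without Lars2 and the acinar list, and TPM without re-centring called 10353 to 13078 of 14267 tested genes higher. A pass in those fits says little about a member, and they are among the 7 in which Fcgr1 passed. Without the 4 libraries rich in lymphoid genes the log2 fold changes were larger than in the whole set for each of the 9 genes, from 1.15 for Csf1r through 1.79 for Adgre1, 1.97 for C1qb and 2.19 for C1qc to 2.66 for Ms4a7. Each member was higher in KPC 2 and KPC 4 than in KPC 1 and KPC 3. Leaving those 2 out lowers the KPC level, so larger values in that fit follow in part from the choice of libraries. That fit also called more genes of other lists higher, with 8 of 10 pan-leukocyte genes and 3 of 5 tested neutrophil genes (S100a8, S100a9 and Ltf), beside the lymphoid genes named above. It called 2380 of all 14832 tested genes higher.

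Levels of different genes can be set against each other only per length, as the deposited TPM summed over each gene. In every library Lyz2 was the highest and C1qa came next, followed by C1qb and C1qc in changing order, then Csf1r, then Cd68, then Adgre1 and Ms4a7 in changing order, and Fcgr1 last. Lyz2 stood at 756 to 1401 TPM in KPC-OG and 52.5 to 139 TPM in KPC. C1qa stood at 128 to 322 TPM in KPC-OG and 19.1 to 32.2 TPM in KPC, and Csf1r at 33.4 to 70.1 TPM in KPC-OG and 5.24 to 13.3 TPM in KPC. TPM is a share of each library, including its Lars2 and acinar reads, so these ranges are not a measure of the difference between genotypes. The ranges of neighbours overlapped between C1qb (92.7 to 221 TPM in KPC-OG) and C1qc (96.5 to 215 TPM in KPC-OG), whereas Lyz2 was several times C1qa in each library.

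A ratio of genes within a library does not depend on how libraries are scaled to each other. The C1q chains were of like abundance. The TPM ratio of C1qc to C1qb was 1.002, 0.981, 1.04 and 0.972 in KPC-OG, against 0.795, 1.16, 0.902 and 1.14 in KPC. C1qa was more abundant than C1qb in every library, by 1.47 ± 0.08 times in KPC-OG and 1.66 ± 0.17 times in KPC (SD, n = 4 each), and the groups overlapped. C1qa was 1.33 to 1.58 times C1qc in KPC-OG and 1.39 to 2.38 times in KPC, with KPC 1 the highest and a wider spread in KPC (SD 0.106 in KPC-OG and 0.457 in KPC, n = 4 each). The ratios to Csf1r behaved otherwise. Lyz2 was 19.2, 20.3, 22.7 and 20 times Csf1r in KPC-OG, against 10.02, 10.4, 14.3 and 12.9 times in KPC. C1qb was 3.16, 2.72, 2.78 and 3.15 times Csf1r in KPC-OG, against 1.93, 1.44, 1.76 and 1.72 times in KPC. For Adgre1, Lyz2, C1qa, C1qb, C1qc and Ms4a7 the ratio to Csf1r was higher in every KPC-OG library than in any KPC library, and for Cd68 and Fcgr1 the groups overlapped. Of the other 14266 tested genes, 2.36% had such a ratio to Csf1r. For Ms4a7 the gap was narrow, 0.319 in the lowest KPC-OG library and 0.316 in KPC 4. No test was run on the ratios.

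**Figure D3:**
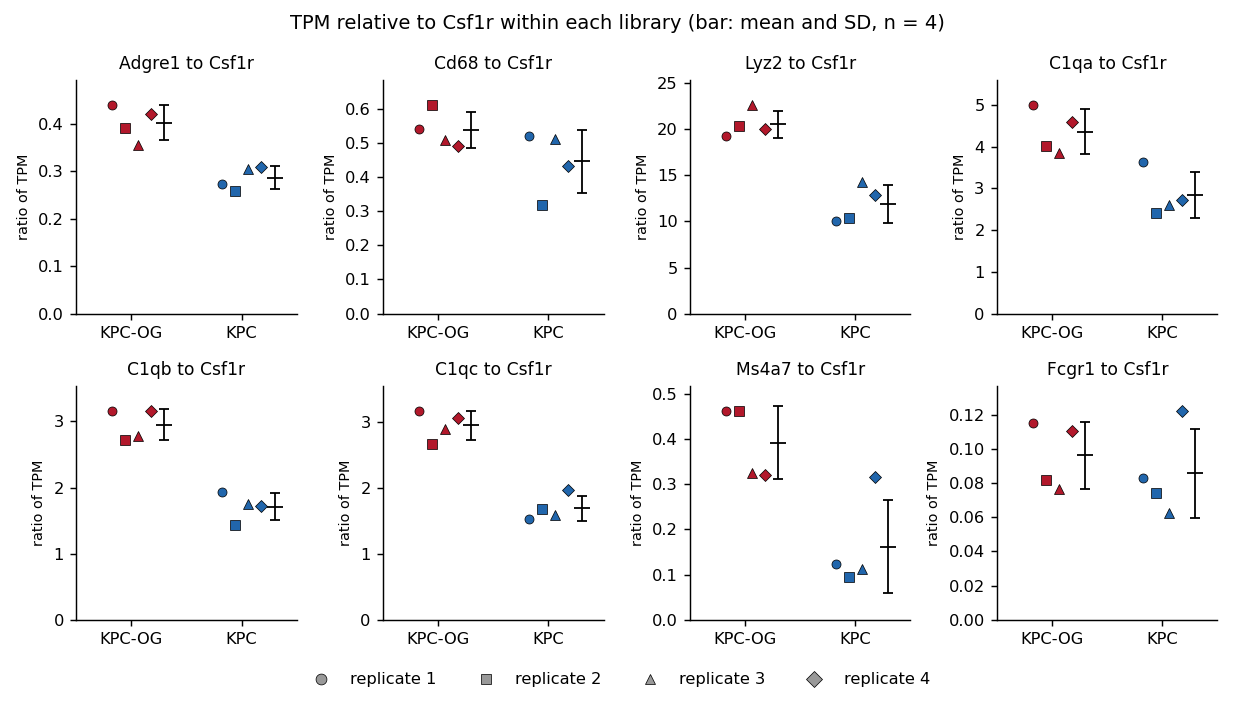
Ratio of the TPM of 8 genes to that of Csf1r within each library, with KPC-OG in red left of KPC in blue, the replicate number as the marker shape, and bars for mean and SD (n = 4). The genotypes are apart for 6 genes, such as Lyz2 with a mean of 20.6 in KPC-OG and 11.9 in KPC, and overlap for Cd68 and Fcgr1.

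Against Ptprc, which encodes the leukocyte antigen CD45 found on all white cells, most ratios overlapped. Ptprc measured 31.1, 84.4, 81.4 and 50.2 CPM in KPC-OG, against 17.8, 84.0, 17.5 and 95.9 CPM in KPC. It was high in the libraries rich in lymphoid genes of either genotype, and its log2 fold change of 0.19 ± 0.61 (SE) did not pass (adjusted p = 0.838). The ratio of C1qb to Ptprc in TPM was 7.38, 2.19, 3.09 and 6.00 in KPC-OG, against 3.78, 1.07, 3.79 and 1.07 in KPC, and the groups overlapped. The ratio to Ptprc overlapped for every member apart from Ms4a7, at 0.36 to 1.08 in KPC-OG and 0.0713 to 0.242 in KPC. How many of all tested genes had a ratio to Ptprc without overlap was not counted, so these overlaps have no background to be set against. None of the 10 pan-leukocyte genes passed in edgeR, where 3 had an unadjusted p under 0.05, and 1 (Laptm5) rose in DESeq2, with a median log2 fold change of 0.67. Leaving out KPC 2 called Itgb2 higher, and leaving out KPC 4 called Cd53 and Laptm5. Without the 4 libraries rich in lymphoid genes 8 of these 10 passed as higher in KPC-OG.

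Most other genes of macrophages and monocytes moved with the members. Of 20 such genes 15 rose and none fell, with a median log2 fold change of 1.17. Itgam, Ly6c2, Cd163, Siglec1 and Gpr34 did not pass (adjusted p 0.0809 to 0.856). Cd14, the lipopolysaccharide co-receptor of monocytes and macrophages, averaged 15.6 ± 3.79 CPM in KPC-OG and 3.14 ± 0.25 CPM in KPC (SD, n = 4 each), a log2 fold change of 2.33 ± 0.22 (SE, adjusted p = 0.000465). Tyrobp, the DAP12 adaptor of activating myeloid receptors, rose by 2.04 ± 0.23 on the log2 scale (adjusted p = 0.000558). Apoe, a lipid carrier secreted by macrophages as well as other cells, rose by 1.65 ± 0.21 (adjusted p = 0.000803), and Ctss, the cathepsin that trims the class II invariant chain, by 1.58 ± 0.23 (adjusted p = 0.00116). Ccr2, the chemokine receptor of inflammatory monocytes, averaged 55.5 ± 15.7 CPM in KPC-OG and 22.1 ± 6.19 CPM in KPC (SD, n = 4 each, adjusted p = 0.00297). Cx3cr1, the fractalkine receptor, had a log2 fold change of 0.89 ± 0.25 (adjusted p = 0.0195) that missed without KPC 1 (adjusted p = 0.0602). Mertk, a receptor for the uptake of dying cells, had 0.72 ± 0.24 (adjusted p = 0.0422), and 6 of the 8 fits that left out 1 library lost it, those without KPC-OG 2, KPC-OG 3, KPC-OG 4, KPC 1, KPC 2 or KPC 3 (adjusted p 0.0509 to 0.107). The count of 15 fell to 9 without KPC 1, to 8 with library sizes re-centred on the median gene, where Cx3cr1 (adjusted p = 0.14) and Mertk (adjusted p = 0.211) missed, and was 14 without the 4 libraries rich in lymphoid genes.

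The ligands of Csf1r and the transcription factors of the lineage formed the next group, with 9 of 13 genes higher, none lower and a median log2 fold change of 0.98. Il34, the tissue ligand of Csf1r, measured 6.97, 5.73, 3.47 and 7.26 CPM in KPC-OG, against 1.15, 2.07, 1.06 and 1.35 CPM in KPC. The groups did not overlap, and the log2 fold change was 2.04 ± 0.33 (SE, adjusted p = 0.00162), on 4 to 11 counts in the KPC libraries. Csf1, the other ligand, averaged 16.2 ± 2.22 CPM in KPC-OG and 10.4 ± 3.02 CPM in KPC (SD, n = 4 each), a log2 fold change of 0.63 ± 0.20 (adjusted p = 0.0318). The call for Csf1 was lost without any one of KPC-OG 1, KPC-OG 4, KPC 1, KPC 3 or KPC 4 (adjusted p 0.0734 to 0.0915). Spi1, which encodes PU.1, had a log2 fold change of 1.10 ± 0.37 (adjusted p = 0.0446) and lost its call without KPC 1, KPC 3 or any one KPC-OG library (adjusted p 0.054 to 0.124). Runx1, a regulator of blood cell formation that is also active in epithelium, rose by 1.60 ± 0.17 on the log2 scale (adjusted p = 0.000465). Csf2ra, a chain of the GM-CSF receptor, rose by 1.46 ± 0.19 (adjusted p = 0.000774), and Cebpb, a factor of inflammatory myeloid cells, by 1.08 ± 0.19 (adjusted p = 0.00241). With library sizes re-centred on the median gene 4 of the 13 passed, and Cebpb (adjusted p = 0.0595), Spi1 (0.162) and Csf1 (0.317) were not among them.

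The partners of C1q in the classical pathway rose in part. Of 14 genes of the pathway and of C1q binding, 11 could be tested, of which 5 rose and none fell, with a median log2 fold change of 0.81. C1s1 and C1ra, the proteases that C1q switches on, rose by 1.37 ± 0.28 (adjusted p = 0.00501) and 1.14 ± 0.21 (adjusted p = 0.0033) on the log2 scale. C2, a substrate of C1s, rose by 1.63 ± 0.36 (adjusted p = 0.00722). Serping1, the inhibitor of both proteases, averaged 93.1 ± 33.6 CPM in KPC-OG and 25.5 ± 6.99 CPM in KPC (SD, n = 4 each), a log2 fold change of 1.86 ± 0.29 (adjusted p = 0.00155). Lrp1, an endocytic receptor that takes part in C1q-guided uptake, rose by 1.06 ± 0.23 (adjusted p = 0.00587). With library sizes re-centred on the median gene 4 of the 11 passed, without Lrp1 (adjusted p = 0.0569), and Serping1 alone did with re-centred TPM and a pseudocount of 0.1. C4b, another component of the cascade, measured 462, 331, 476 and 453 CPM in KPC-OG, against 621, 512, 478 and 701 CPM in KPC. Its log2 fold change of -0.43 ± 0.20 did not pass (adjusted p = 0.132). C1ra shares 64.8% of its 20-base words with other genes, chiefly its near copy C1rb, and C1s1 45.6%, chiefly C1s2, but C1rb was at 0 in every KPC library and below 1 CPM in KPC-OG.

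Fibroblasts are a known source of C1r, C1s and the inhibitor as well. Of 10 fibroblast genes 9 rose, with a median log2 fold change of 1.48, and of 10 duct genes 8 rose, with a median of 1.62, while 19 of 24 acinar genes fell (median -2.08) and none of 8 endothelial genes passed (median -0.02, with 1 lower at an unadjusted p under 0.05). The part of these cell types in the rise of the complement genes was not tested. Within KPC-OG, Serping1 measured 109, 80.9, 52.8 and 130 CPM in libraries 1 to 4 and C1s1 104, 97.1, 53.0 and 124 CPM, both lowest in KPC-OG 3. C1qb was lowest in KPC-OG 2 and second highest in KPC-OG 3, so the proteases and their inhibitor did not share the order of the C1q chains across these 4 libraries. Within KPC, C1s1 measured 26.7, 38.7, 29.7 and 50.8 CPM and Serping1 21.2, 22.9, 22.0 and 36.0 CPM. C1qb measured 16.0, 22.2, 17.0 and 24.8 CPM in KPC, the same order as C1s1 and Serping1. In KPC-OG the fibroblast list summed to 4671, 2808, 1660 and 4293 CPM and the duct list to 1792, 1681, 975 and 1993 CPM. Both were also lowest in KPC-OG 3, while the acinar list was highest in that library, at 147347, 99142, 284707 and 76794 CPM. In KPC the fibroblast list summed to 1031, 1317, 987 and 1292 CPM and the duct list to 580, 480, 550 and 655 CPM.

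All 5 genes of IgG Fc receptors and their adaptor other than Fcgr1 rose, with a median log2 fold change of 1.92. Fcgr2b, the inhibitory receptor, averaged 32.0 ± 8.74 CPM in KPC-OG and 8.42 ± 2.84 CPM in KPC (SD, n = 4 each), a log2 fold change of 1.92 ± 0.28 (adjusted p = 0.00125). Fcgr3, an activating receptor, averaged 31.8 ± 6.63 CPM in KPC-OG and 8.74 ± 3.46 CPM in KPC, a log2 fold change of 1.86 ± 0.28 (adjusted p = 0.00138). These receptors share words with each other, 17.1% of those of Fcgr3 and 5.33% of those of Fcgr2b, so their separate values are less certain than their sum. Fcer1g, the signalling chain of the activating receptors and of Fcgr1, rose by 2.12 ± 0.25 (adjusted p = 0.000669). Fcgrt, the neonatal receptor that recycles IgG in many cell types, rose by 1.39 ± 0.15 (adjusted p = 0.000465). Fcgr4, another activating receptor, rose by 2.10 ± 0.48 (adjusted p = 0.00775) on 1 to 6 counts in the KPC libraries, and limma-voom did not call it. Fcgr1 thus had the smallest log2 fold change of the 6 genes, and its difference from the others was not tested.

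Within the Ms4a family 4 of 9 tested genes besides Ms4a7 rose and none fell, with a median log2 fold change of 0.73. Ms4a8a measured 3.32, 5.65, 4.71 and 5.21 CPM in KPC-OG, against 0.955, 0.939, 0.531 and 1.01 CPM in KPC (log2 fold change 2.42 ± 0.31, adjusted p = 0.000752). Its KPC values rest on 2 to 6 counts a library. Ms4a6d rose by 1.37 ± 0.30 (adjusted p = 0.00669), and Ms4a6c by 1.59 ± 0.44 (adjusted p = 0.0204). The Ms4a6c call was lost without KPC 3 (adjusted p = 0.05), and 32.3% of its words occur in other genes, chiefly Ms4a6b. Nor did it pass with library sizes re-centred on the median gene (adjusted p = 0.0504). Ms4a4a measured 0.609, 0.726, 1.44 and 0.923 CPM in KPC-OG, against a single count (0.188 CPM) in KPC 2 and 0 in the other KPC libraries, and it passed the test (adjusted p = 0.00868). Ms4a1, which encodes the B cell antigen CD20 and not a macrophage protein, had 0.487, 21.2, 11.7 and 5.42 CPM in KPC-OG, against 0, 13.7, 0 and 19.4 CPM in KPC, and followed the lymphoid libraries in place of genotype.

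Macrophages of other organs were considered, since liver and lymph node genes were seen in some libraries. Of 9 markers of macrophages of liver, spleen and peritoneum 7 were tested, and none passed in edgeR, where 1 (Gata6, lower) had an unadjusted p under 0.05, and none rose in DESeq2 or limma-voom, with a median log2 fold change of 0.39. Other fits did call some of them higher. Vsig4, a complement receptor of resident macrophages, was too low for the filter, at 0.883, 0.441, 0.72 and 1.16 CPM in KPC-OG, against 0 in KPC 1 to 3 and 0.338 CPM in KPC 4. It was called with no filter, without KPC-OG 3 and without KPC 4 (adjusted p 0.0211 to 0.0431). Without the 4 libraries rich in lymphoid genes Vsig4 and Lyve1, a hyaluronan receptor of some tissue macrophages and of lymphatic vessels, were called among 8 tested (adjusted p = 0.0305 and 0.00517). In the whole set Lyve1 had a log2 fold change of 0.86 ± 0.41 (SE, adjusted p = 0.139), at 15.7, 25.6, 31.2 and 18.3 CPM in KPC-OG, against 4.78, 20.1, 7.43 and 16.9 CPM in KPC. Cd5l, a secreted protein of macrophages of liver and spleen, measured 0.944, 6.56, 3.80 and 4.67 CPM in KPC-OG, against 0.191, 2.63, 0.265 and 2.36 CPM in KPC, and its log2 fold change of 1.48 ± 0.76 did not pass (adjusted p = 0.161). The groups overlapped for both. Clec4f, the defining marker of Kupffer cells, was at 0 in 7 of the 8 libraries and at 0.233 CPM in KPC-OG 2. Marco, a scavenger receptor of spleen and lymph node macrophages, measured 2.28, 27.2, 31.0 and 5.42 CPM in KPC-OG, against 0.955, 28.4, 1.33 and 25.0 CPM in KPC, and its log2 fold change of 0.19 did not pass (adjusted p = 0.911). Siglec1, the sialoadhesin of lymph node macrophages and 1 of the 20 macrophage and monocyte genes above, measured 5.81, 18.7, 31.8 and 13.0 CPM in KPC-OG, against 5.35, 19.4, 4.51 and 20.3 CPM in KPC, and did not pass (adjusted p = 0.623). Marco and Siglec1 were high in KPC-OG 2, KPC-OG 3, KPC 2 and KPC 4, the libraries rich in lymphoid genes. These genes, Clec4f, Vsig4, Lyve1, Cd5l, Marco, Siglec1 and Gata6, and the pan-leukocyte, neutrophil and lymphoid genes named above other than Ptprc, were picked after they had been seen.

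**Figure D4:**
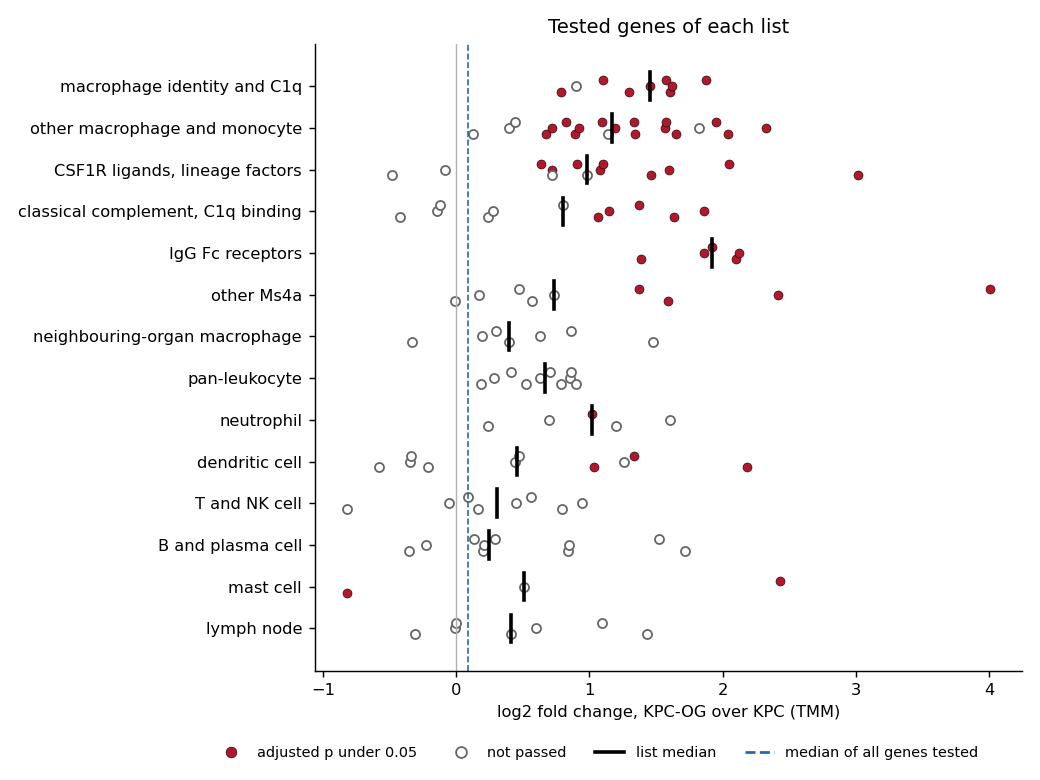
Log2 fold change of KPC-OG over KPC (edgeR, TMM) for each tested gene of the 9 macrophage and C1q genes and of 13 other lists, filled red where the adjusted p was under 0.05, with a black bar at the list median and a blue dashed line at the median of all tested genes (0.09). The medians were 1.45 for the macrophage and C1q genes, 1.92 for the Fc receptor list and 0.25 for the B and plasma cell list.

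The genes that varied most like the 9 members from library to library within the genotypes were found by Pearson's r over the 8 libraries, between each gene's deviation from its group mean and the mean deviation of the members, among 9240 genes. Mpeg1, the pore-forming perforin-2 of macrophages, had the highest r at 0.985. St3gal1, a sialyltransferase, had 0.978, and Cp, the copper carrier ceruloplasmin, 0.972. Cd38, an NAD-consuming surface enzyme of many leukocytes, had 0.968 and Ctss 0.967. The 8 values share library depth and composition with the members, so r is a description. Of these genes Ctss and Cp rose between genotypes (adjusted p = 0.00116 and 0.00541) and Mpeg1 passed at 0.0308. St3gal1 did not pass (adjusted p = 0.453), at 12.1 ± 1.05 CPM in KPC-OG and 10.7 ± 2.22 CPM in KPC (SD, n = 4 each), nor did Cd38 (adjusted p = 0.0966). Mpeg1 lost its call without KPC-OG 3, KPC-OG 4, KPC 1 or KPC 3 (adjusted p 0.0561 to 0.0822). With library sizes re-centred on the median gene neither Cp (adjusted p = 0.214) nor Mpeg1 (adjusted p = 0.153) passed.

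At the level of transcripts, C1qa, C1qb, Lyz2 and Fcgr1 had 1 annotated transcript each. The Csf1r transcript of 3870 bases took 82.8% to 90.7% of Csf1r reads in KPC-OG and 71.7% to 91.6% in KPC. The rest went to one of 4701 bases, and 17.5% of the 20-base words of Csf1r also occur in Hmgxb3. Other genes share 18.7% of the words of the longer transcript and 0.857% of those of the shorter. Hmgxb3 measured 11.7 to 12.5 CPM in KPC-OG and 12.6 to 21 CPM in KPC. The part of Hmgxb3 reads in the level of Csf1r, and so in the ratios to Csf1r, was not tested. Adgre1 reads were split between transcripts of 3245 and 3124 bases in each KPC-OG library, with 33.2% to 70.2% for the longer, while each KPC library gave all reads to a single transcript, the longer in KPC 2 and the shorter in the others, on 32 to 77 counts. At such counts the estimate does not resolve the transcripts, and only gene sums are used above. Strand is not stated, so reads of overlapping genes cannot be told apart.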

How the data were processed

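Per the file headers, the authors estimated transcript abundance with Sailfish 0.6.3, using 20-base words, 1000 iterations and bias correction, on an index of Ensembl release 76 mouse transcripts. The deposited estimated counts need not be whole. The deposited TPM values are shares within each library, and the deposited transcript lengths were used only to describe transcripts. Further tools appear in the submitters' processing notes with no role (bcl2fastq, STAR 2.0.4b, limma and edgeR), and for the index the sources used here name no genome build.

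Of 86127 transcripts 83827 matched GENCODE M21 (GRCm38). The other 2300, with 1.45% to 3.04% of reads in KPC-OG and 3.93% to 4.23% in KPC, were left out. Estimated counts were summed over 29621 genes and rounded. Genotypes were compared by the quasi-likelihood test of edgeR 4.0.16 (R 4.3.3; TMM, filterByExpr by group, no block, Benjamini-Hochberg adjustment, threshold 0.05, 14267 genes). limma 3.58.1 and DESeq2 1.42.0 were alternatives. SE is the log2 fold change over the root of the F statistic. The scripts were tested on simulated data. Libraries of a group differed beyond counting noise (chi-square per degree of freedom at least 16.1), so none was a copy of another. Separate preparations from the same mouse could differ in this way too, so it does not show separate mice.

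Groups and replicate numbers come from sample titles. The members and the 18 other lists were chosen with earlier results of these data known, and p-values are adjusted over all tested genes. Named genes are the members, up to 4 passing genes with the smallest adjusted p per list, all passing genes where 5 or fewer passed, and a set chosen by symbol (Csf1, Il34, Ptprc, Spi1, Mertk, Cx3cr1, Ccr2, Cd14, Lyz1, C1ra, C1s1, Serping1, Fcgr2b, Fcgr3, Fcgr4, Fcer1g, Tyrobp), with the 5 most alike genes of at least 5 CPM. C4b, Ms4a1, the macrophage and monocyte genes that did not pass and the single genes of lists with no call were named after their values were seen. Some of the genes that this rule names are left out of the text.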

Additional observations from a re-analysis of the deposited data

Results flagged for a closer look

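In 168 groups of 4 libraries (each named gene and ratio in each genotype) the highest or lowest library was compared with the other 3 by Dixon's test, and chance sets apart about 1 in 20 groups. It set 12 apart, 3 of them in KPC-OG 4. Fcer1g was 23.4 CPM in KPC-OG 4, against 16.9 to 17.5 CPM in the other KPC-OG libraries, Fcgr4 was 4.38 CPM there against 2.05 to 2.36, and Cx3cr1 was 24.2 CPM against 12.8 to 14.5. Clec10a was 14.5 CPM in KPC-OG 3, against 6.55 to 7.24 CPM in the other KPC-OG libraries.

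Among KPC libraries, the TPM ratio of Ms4a7 to Csf1r was 0.316 in KPC 4, against 0.0956 to 0.123 in the other 3. Serping1 was 36.0 CPM in KPC 4, against 21.2 to 22.9 CPM in the other KPC libraries. Csf2ra was 6.95 CPM in KPC 2, against 4.51 to 4.90 CPM. In KPC 3, Ms4a8a was 0.531 CPM, against 0.939 to 1.01 CPM, and Kit was 23.6 CPM, against 21.0 to 21.4 CPM. In KPC 1, Alb was 6.49 CPM, against 2.63 to 3.04 CPM, and Fabp1 was 0.382 CPM with 0 elsewhere. Ms4a4a was 0.188 CPM in KPC 2, with 0 in the other 3.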

How the results depend on the processing

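Counts over all genes moved with the scaling. Against 2486 higher and 2373 lower, library sizes alone gave 13078 and 99 (the median gene shifted by 1.74 on the log2 scale), library sizes without Lars2 and the acinar list 10353 and 340, and TPM with a pseudocount of 1 or 0.1 gave 12946 and 125 or 12898 and 123. Re-centred on the median gene, library sizes gave 917 and 1400, and TPM gave 984 and 1605 with a pseudocount of 1 and 586 and 1023 with 0.1. Leaving out 1 library gave 1689 to 2880 higher and 1705 to 2548 lower. Without the 4 libraries rich in lymphoid genes, chosen after seeing the data as was re-centred TPM, there were 2380 and 2075 of 14832 tested. The members called numbered 8 to 9 without 1 library, 7 with re-centred library sizes and 6 with re-centred TPM and a pseudocount of 0.1. The sign turned for Kit with library sizes alone (0.86), without Lars2 and the acinar list (0.13) and with TPM (0.48 and 0.57), and for Hdc with re-centred TPM and a pseudocount of 1 (-0.19). The cause was not tested.

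Deviations from the group mean had an r of 0.274, 0.275, 0.038 and 0.036 between same-numbered libraries of the genotypes. With 4 libraries in each group such values cannot show whether the numbers pair them. A replicate block gave 2477 higher and 2418 lower, and under it Fcgr1 passed (adjusted p = 0.0465), as did 4 of the 10 pan-leukocyte genes (Laptm5, Itgb2, Arhgdib and Plek) and Cd5l (adjusted p = 0.0215), while Hdc and Alb lost their calls. KPC-OG 1, KPC-OG 2 and KPC-OG 4 correlated best with the KPC library of their own number, and KPC-OG 3 with KPC 2 (r of 0.055). From the other side, KPC 3 correlated best with KPC-OG 1 (0.159) and KPC 4 with KPC-OG 2 (0.197). Depth limits the genes with few counts in KPC, among them Ms4a7, Fcgr1, Fcgr4, Il34 (4 to 11 counts in a KPC library), Ms4a8a (2 to 6) and Cd209a (0 to 11).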

Other observations

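Of 12 neutrophil genes 5 could be tested, with a median log2 fold change of 1.02, and 1 passed, Csf3r, the G-CSF receptor, with 4.28 ± 1.18 CPM in KPC-OG and 2.11 ± 0.71 CPM in KPC (SD, n = 4 each, edgeR adjusted p = 0.0316). Its call was lost without KPC-OG 1, KPC-OG 3, KPC-OG 4, KPC 1 or KPC 4 (adjusted p 0.0558 to 0.0808). Without KPC 2 the neutrophil genes S100a8 and S100a9 passed as well (adjusted p = 0.0193 and 0.0154). The granule genes Elane and Mpo were near the floor, at 0 in all KPC libraries and at most 0.104 and 0.337 CPM in KPC-OG. Mmp8 and Ngp, also too low to test, were each at 0.751 CPM in KPC 2, against at most 0.311 and 1.06 CPM in KPC-OG. Elane, Mpo, Mmp8 and Ngp were picked after they had been seen. Of 10 dendritic cell genes 3 passed, with a median log2 fold change of 0.46. With library sizes re-centred on the median gene none of the neutrophil or dendritic cell genes passed, Csf3r with an adjusted p of 0.193, Itgax 0.0691, Clec10a 0.0871 and Cd209a 0.0901. Itgax, which encodes CD11c and is also found on macrophages, averaged 10.8 ± 1.46 CPM in KPC-OG and 4.15 ± 2.40 CPM in KPC (adjusted p = 0.0133). Cd209a, of monocyte-derived cells, averaged 2.82 ± 0.85 CPM in KPC-OG and 0.558 ± 0.884 CPM in KPC (adjusted p = 0.0442), and 6 of the 8 fits without 1 library lost it, those without KPC-OG 1, KPC-OG 2, KPC-OG 4, KPC 1, KPC 2 or KPC 3 (adjusted p 0.0743 to 0.105). Clec10a, a galactose lectin, averaged 8.75 ± 3.87 CPM in KPC-OG and 4.27 ± 0.83 CPM in KPC (adjusted p = 0.0244), and missed without KPC 1, KPC 2 or KPC 4 (adjusted p 0.0527 to 0.0746).

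Of 8 mast cell genes 3 could be tested. Kit, the stem cell factor receptor, averaged 12.4 ± 2.90 CPM in KPC-OG and 21.8 ± 1.20 CPM in KPC (edgeR adjusted p = 0.00449). This direction turned with library sizes alone, with library sizes without Lars2 and the acinar list, and with TPM that was not re-centred. With library sizes re-centred on the median gene Kit stayed lower in KPC-OG (log2 fold change -0.965, edgeR adjusted p = 0.0121). Hdc, the histamine-forming enzyme, averaged 1.08 ± 0.20 CPM in KPC-OG and 0.183 ± 0.266 CPM in KPC on 0 to 3 counts in KPC (adjusted p = 0.0252). It lost its call without KPC-OG 1, KPC-OG 2, KPC-OG 4, KPC 1, KPC 3 or KPC 4 (adjusted p 0.0525 to 0.0666), and with library sizes re-centred on the median gene (adjusted p = 0.076). Of the liver genes, Alb measured 4.54, 177, 194 and 5.51 CPM in KPC-OG, against 6.49, 2.63, 2.92 and 3.04 CPM in KPC.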
